A study of Mus musculus with 13 samples.

Results

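Resident microglia, the macrophages that live in brain tissue, are recognised by a small group of genes: P2ry12, Tmem119, Cx3cr1, Csf1r, Trem2, Tyrobp, Siglech, Aif1 and Laptm5. The genes were taken by symbol on an Illumina mouse bead array. Of the 9 genes, 8 had a probe, with 12 probes among the 25697 measured, and these 8 stood among 10923 genes that could be tested. Csf1r, the receptor for the growth factors that keep microglia alive, was not analysed here. The study set neural stem cells induced from mouse embryonic fibroblasts (iNSC) against other neural cells, in culture and in the brain. All 13 samples are labelled as strain C3H. The iNSC in vivo sample had been grafted into the brain of adult mice, and its label gives the interval as 14 without a unit. The NSC in vivo sample is labelled as neural stem cells (NSC) in vivo, and its label mentions no graft. Cultured iNSC, cultured neural progenitors derived from ESC (ESC NPC) and cultured NSC had 3 clones each, with 1 array per clone. Fibroblasts (MEF) and embryonic stem cells (ESC) had 1 array each, as did both in vivo samples. The labels name no cell sort and no method of recovery for the in vivo samples, and nothing says whether the clones came from separate animals.

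Microglia arise from yolk sac precursors, not from neural stem cells, and need signals through Csf1r to survive. In healthy brain they carry P2ry12, a receptor for ADP that steers their processes, Tmem119, a membrane protein used as a marker of resident microglia, Siglech, a sialic acid binding receptor, and Cx3cr1, the receptor for the neuronal chemokine fractalkine. Trem2 is a lipid-sensing receptor that signals through the adaptor Tyrobp, also called DAP12, to which Siglech also couples. Aif1, better known as Iba1, is an actin-bundling protein, and Laptm5 is a lysosomal membrane protein of blood-derived cells. Microglia that react to injury are known to lower P2ry12 and Tmem119 and to raise Trem2 and Tyrobp.

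The in vivo arrays stood apart from the rest before any comparison. They detected 26.2% and 26.7% of probes, against 40.8% to 49.9% on the 11 arrays of cultured cells, where detected means a detection p under 0.01. Their median signal was 80.1 units in iNSC in vivo and 79.3 units in NSC in vivo, against 101.7 to 116.9 units in culture. Of 5 neural stem cell markers tested, Sox2, Nes and Fabp7 were not detected on either in vivo array, while all 5 were detected on each iNSC and NSC array from culture. Of the other 2, the glutamate transporter Slc1a3 stood at 13.76 in iNSC in vivo and 13.80 in NSC in vivo, against means of 13.49 in iNSC and 13.76 in NSC from culture. Sox9 was detected in NSC in vivo, at 6.45, and not in iNSC in vivo. In the in vivo samples 3 of the defining markers of their label were thus not detected, while Slc1a3 was. Nes in NSC in vivo, at 92.2 units, lay just under Sox9, which was detected there at 92.5 units. Microglia genes were detected on both: all 8 with a probe on each in vivo array, with a summed normalized signal of 24100 in iNSC in vivo and 23600 in NSC in vivo. The same sum was 164 to 186 in iNSC and 161 to 173 in NSC from culture, and 5350 on the ESC array. Laptm5 alone, at 14.04 in iNSC in vivo and 14.09 in NSC in vivo on the log2 scale, made up most of both in vivo sums. In bulk samples fewer cells of a type and less RNA per cell cannot be told apart.

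**Figure D1:**
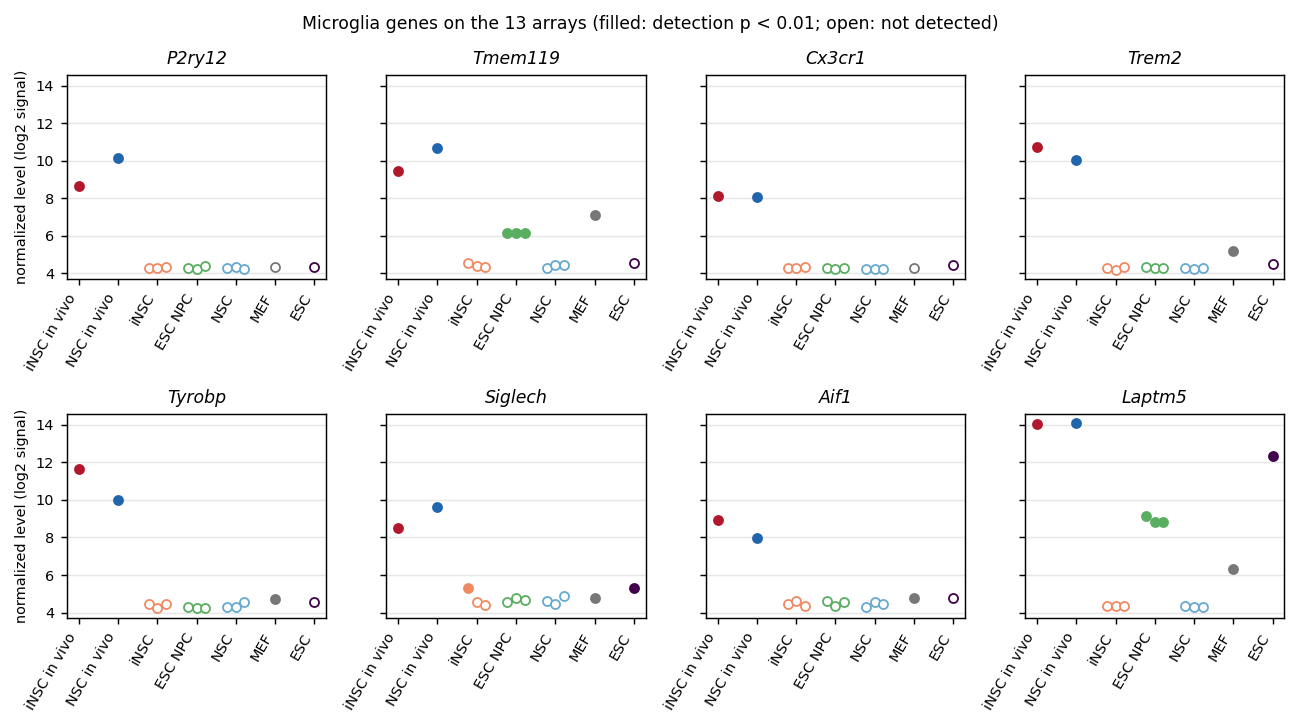
Normalized log2 level of each microglia gene (y axis) on every array, grouped by kind of sample (x axis), where each point is 1 array and open points were not detected. All 8 genes were detected in iNSC in vivo and NSC in vivo, Laptm5 was also high on the ESC array, and P2ry12 and Cx3cr1 were detected on no array of cultured cells.

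The comparison of iNSC in vivo with NSC in vivo asked how these samples differ in the brain. The microglia genes differed in both directions. P2ry12, Tmem119 and Siglech were lower in iNSC in vivo by 2.20-fold to 2.85-fold, Tyrobp was 3.19-fold higher, and Cx3cr1 and Laptm5 differed by 1.02-fold and 1.03-fold. With 1 array against 1 there is no replicate check and no test. Counted at a difference of at least 2-fold, 1 of the 8 genes was higher and 3 were lower, while 18.4% of all genes passed that limit, 9.18% higher and 9.21% lower. The median difference of the 8 genes was -0.01 on the log2 scale, as was that of all genes tested. The middle 90% of all genes lay between -1.44 and 1.499 on the log2 scale, so P2ry12 and Tyrobp fell outside that range and the other 6 inside it.

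Among the receptors of the resting state, P2ry12 gave a signal of 190 units in iNSC in vivo and 468 units in NSC in vivo. On the 11 arrays of cultured cells its signal ran from 92.5 to 109 units, with a median of 96.8 units, and no array detected it. Its normalized level was 8.64 in iNSC in vivo and 10.16 in NSC in vivo, a difference of -1.51 on the log2 scale. P2ry12 was thus present on both in vivo arrays and lower on the iNSC one.

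Tmem119 had a signal of 303 units in iNSC in vivo and 677 units in NSC in vivo, a difference of -1.25 on the log2 scale after normalization. Siglech, read with the brightest of its 3 probes, gave 176 units in iNSC in vivo and 325 units in NSC in vivo, a difference of -1.14. The other 2 Siglech probes were detected on no array of the series, so the direction for this gene rests on 1 probe. Cx3cr1 did not follow these 3 genes, with 148 units in iNSC in vivo and 140 units in NSC in vivo (difference 0.03 on the log2 scale). It was detected on no cultured array, where its signal lay between 92.7 and 113 units with a median of 95 units.

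The Trem2 and Tyrobp pair went the other way. Tyrobp gave 1351 units in iNSC in vivo and 411 units in NSC in vivo, and normalized levels of 11.65 and 9.98, the largest positive difference of the 8 genes (1.67 on the log2 scale). Trem2 gave 737 units in iNSC in vivo and 419 units in NSC in vivo (0.74 on the log2 scale, or 1.67-fold). Receptor and adaptor were therefore both higher on the iNSC in vivo array, Trem2 by less than the limit of 2-fold.

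Aif1 was read by 3 probes, of which 2 detected it in vivo. The brighter probe gave 226 units in iNSC in vivo and 133 units in NSC in vivo, and the other gave 161 units and 104 units in the same order. The differences were 1.00 and 1.19 on the log2 scale, so the 2 probes gave the same direction, and the brighter probe lay just under the 2-fold limit (0.9992 on the log2 scale). The third probe was detected on no array. Laptm5 gave 11939 units in iNSC in vivo and 8744 units in NSC in vivo. Normalization put it at 14.04 and 14.09, near the upper end that quantile normalization gives all arrays, and its difference of -0.05 ran against the ratio of the signals, 1.37.

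**Figure D2:**
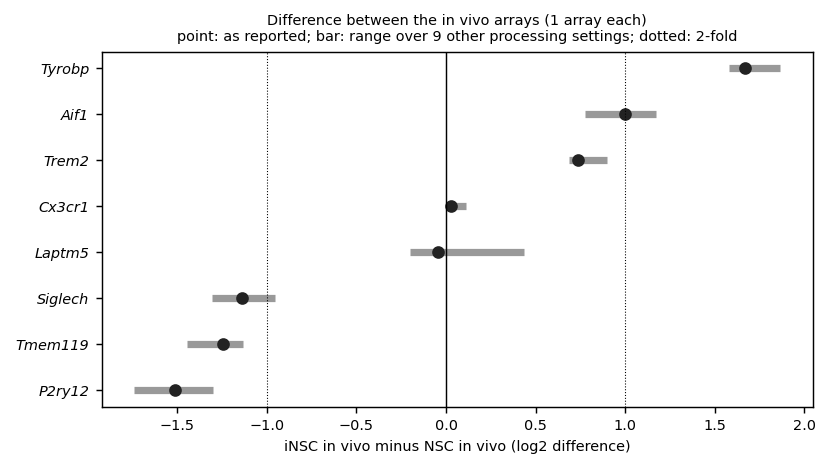
Log2 difference of iNSC in vivo minus NSC in vivo (x axis) for each microglia gene (y axis), with the reported value as a point and the range over 9 other processing settings as a bar; dotted lines mark 2-fold. Tyrobp, Aif1 and Trem2 lay above 0 and Siglech, Tmem119 and P2ry12 below 0 throughout, while the bar of Laptm5 crosses 0.

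The differences spanned 3.18 on the log2 scale, from P2ry12 to Tyrobp. Other processing did not shift the 8 genes alike, and with median scaling P2ry12 stood at -1.69 and Tyrobp at 1.87. The part of array scale in these differences was not tested. Over 9 other settings P2ry12 stayed between -1.74 and -1.30, Tmem119 between -1.45 and -1.14, Tyrobp between 1.58 and 1.87, and Trem2 between 0.68 and 0.90. Siglech came under the limit at -0.95 without background correction. Aif1 passed 2-fold under 4 settings, such as median scaling at 1.17, and Laptm5 changed sign to 0.43 with median scaling.

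Other genes of microglia were taken from a longer list of 25, of which 20 were tested. Between the in vivo arrays 7 were at least 2-fold higher in iNSC in vivo and 1 was lower, where 9.18% and 9.21% of all genes were (median difference 0.42 on the log2 scale). Of the higher genes, Cd33 and Ptprc, named after their values were seen, were detected on iNSC in vivo alone of all arrays. The lower gene, Hpgds, was detected on NSC in vivo alone. Each passed the filter only through the array where it was higher, so these counts are a description. Selplg, an adhesion ligand of white blood cells, stood at 11.89 in iNSC in vivo and 11.95 in NSC in vivo. C1qb, a chain of the first complement component, stood at 12.01 in iNSC in vivo and 11.01 in NSC in vivo. Its difference only just reached the 2-fold limit. So did those of Unc93b1 (1.004 on the log2 scale) and C1qa (1.079), named after their values were seen. P2ry6, a receptor for uridine nucleotides, Fcrls, an Fc receptor-like gene, and Ly86 were higher in iNSC in vivo by 0.27, 0.28 and 0.87 on the log2 scale. The 3 lowest differences, singled out after their values were seen, belonged to Hpgds at -1.29, which was not detected in iNSC in vivo, the purinergic receptor P2ry13 at -0.86 and Gpr34 at -0.79.

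Of 12 ligands and signalling partners of the receptors tested, 2 were at least 2-fold higher in iNSC in vivo and 1 was lower, where 9.18% and 9.21% of all genes were, with a median difference of 0.65 on the log2 scale. Fcer1g, an adaptor related to Tyrobp, stood at 10.74 in iNSC in vivo and 9.39 in NSC in vivo. Hcst, the DAP10 adaptor, stood at 8.72 in iNSC in vivo and 7.79 in NSC in vivo, and the guanine exchange factor Vav1 at 11.56 and 10.69 in the same order. Plcg2, the phospholipase downstream of Trem2, differed by 0.58 and the inositol phosphatase Inpp5d by 0.69 on the log2 scale. Of the ligands, named after their values were seen, Csf1 stood at 8.97 in iNSC in vivo and 7.98 in NSC in vivo, and Il34 was detected on neither.

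Transcription factors and the TGF-beta axis, which set microglial identity, went both ways, with 3 of 13 genes higher and 1 lower at 2-fold, where 9.18% and 9.21% of all genes were (median 0.04 on the log2 scale). Irf8 stood at 10.78 in iNSC in vivo and 8.87 in NSC in vivo, and Irf5 at 10.18 and 8.62 in the same order. Ikzf1 differed by 0.13, Tgfbr2, a TGF-beta receptor, by -0.63 and Runx1, not detected in iNSC in vivo, by -0.40 on the log2 scale.

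Markers of other cell types also differed between the in vivo arrays. Of 14 genes listed for monocytes and for infiltrating or border macrophages, 10 were tested. Ccr2, Ly6c2, Lyve1 and Clec12a were not among them. Of the 10, 8 were at least 2-fold higher in iNSC in vivo and 1 was lower. Of all genes, 9.18% were higher and 9.21% lower at that limit. The summed normalized signal of the 10 was 19200 in iNSC in vivo and 4800 in NSC in vivo. Of these genes 9 were detected in iNSC in vivo and 5 in NSC in vivo. Lysozyme Lyz2 stood at 13.80 in iNSC in vivo and 11.68 in NSC in vivo, and Ms4a7 at 10.24 and 7.82 in the same order. The coagulation factor gene F10 and Plac8 were detected in iNSC in vivo alone of the pair, at 9.99 and 9.41. F10, and Chil3, named after its value was seen, were detected on no other array of the series and so passed the filter there. Cd163, a scavenger receptor of border macrophages, was lower, at 8.19 in iNSC in vivo and 9.69 in NSC in vivo. Arg1, an arginase of reactive macrophages named after its value was seen, had 340 units in iNSC in vivo and was not detected in NSC in vivo.

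Of 11 lymphocyte markers listed, 5 were tested. All 5 were at least 2-fold higher in iNSC in vivo, where 9.18% of all genes were. The summed signals of the 5 were 2340 in iNSC in vivo and 561 in NSC in vivo. Cd3d and Cd3e, chains of the T cell receptor complex, differed by 2.35 and 1.66 on the log2 scale, Nkg7, a granule protein of cytotoxic cells, by 1.87, and Cd2 and Cd79b, detected in iNSC in vivo alone of the pair, by 2.51 and 2.24. Endothelial markers were lower in 6 of 6 tested, of 7 listed, where 9.21% of all genes were at 2-fold. The summed signals of the 6 were 2740 in iNSC in vivo and 13600 in NSC in vivo. Slco1a4, and Cdh5, named after its value was seen, were detected on NSC in vivo alone of all arrays and so passed the filter there. Flt1, a VEGF receptor, differed by -2.52 on the log2 scale, Tek, the angiopoietin receptor, by -2.12, Ly6c1 by -1.95, the adhesion molecule Pecam1 by -1.88 and Slco1a4, not detected in iNSC in vivo, by -1.91. Oligodendrocyte markers were lower in 4 of 5 tested, of 7 listed, with summed signals of 9510 in iNSC in vivo and 20700 in NSC in vivo. The myelin genes Mbp, Mobp, Mal and Cnp differed by -1.08, -1.27, -2.10 and -1.05 on the log2 scale, and Mag by -0.87. The part of these cell types in the differences of Tyrobp, Trem2, Aif1, P2ry12, Tmem119 and Siglech was not tested. A difference between the kinds of cell and one between single samples cannot be told apart either, since each in vivo sample is 1 array.

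**Figure D3:**
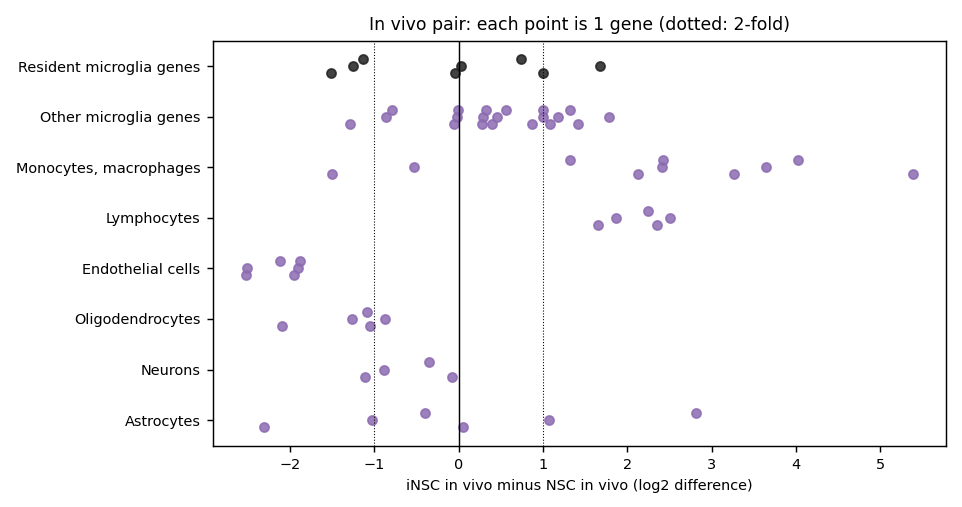
Log2 difference of iNSC in vivo minus NSC in vivo (x axis) for the genes of each list (rows), where each point is 1 gene and dotted lines mark 2-fold. Resident microglia genes lie on both sides of 0, monocyte and macrophage genes mostly above it, lymphocyte genes all above it and endothelial genes all below it.

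The next comparisons set each in vivo sample against its cultured counterpart, asking which genes differ between cells in the brain and cells in culture. All 8 microglia genes with a probe rose in both lines. Counted higher at an adjusted p under 0.05 in limma, they were 8 of 8 in iNSC in vivo against iNSC, where 33.6% of all genes were called higher, and 8 of 8 in NSC in vivo against NSC, where 33.9% were. P2ry12 and Cx3cr1 passed the filter on dim probes through the in vivo arrays alone and so had to differ. The sizes are given as a description.

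Where no array of a cultured group detected a gene, the fold here and below is a lower bound under the reported processing alone. Each array of that group was set to the higher of its lowest detected level and the gene's own value. Laptm5 rose most, by at least 556-fold in iNSC in vivo (1 array against 3) and by at least 588-fold in NSC in vivo (1 array against 3). Its signals were 97.5, 95.1 and 96.6 units in the iNSC clones and 99.7, 97.6 and 98.1 units in the NSC clones, none of them detected. Tyrobp was at least 106-fold higher in iNSC in vivo than in iNSC, and at least 34-fold higher in NSC in vivo than in NSC. For Trem2 these bounds were 56.7-fold in iNSC in vivo and 34.8-fold in NSC in vivo, and for Aif1 16.3-fold and 8.37-fold in the same order. Receptor, adaptor and Aif1 thus had the larger bound in the iNSC line. No iNSC or NSC array detected these genes, nor P2ry12 and Tmem119. The order of their bounds therefore largely repeats the difference between the in vivo arrays and is no separate observation.

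P2ry12 had the larger bound in the NSC line, at least 13.2-fold in iNSC in vivo against iNSC and at least 38.5-fold in NSC in vivo against NSC. Tmem119 was at least 23-fold higher in iNSC in vivo and at least 56-fold higher in NSC in vivo than in culture. Cx3cr1 was alike in both, at least 9.06-fold and 9.1-fold higher in the same order. Siglech was at least 27-fold higher in NSC in vivo than in NSC. For iNSC it was detected on 1 of 3 clones, with 125.5, 100.9 and 98.9 units, and rose by 3.75 ± 0.31 (SE) on the log2 scale. Adjusted p-values of the 8 genes ran from 9.79e-11 to 3.54e-06 in iNSC in vivo against iNSC and from 1.77e-10 to 4.93e-07 in NSC in vivo against NSC (limma).

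These p-values assume that a single in vivo array varies like the clones. The calls held in all 14 alternatives for each line, but sizes depended on the processing. P2ry12 in iNSC in vivo against iNSC stood at 4.34, at 2.19 without background correction and at 6.92 with the deposited values. The value without background correction lay under the bound of 13.2-fold, so the bounds do not carry over to other processing. Whether any gene's rise differs between the lines was not tested.

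**Figure D4:**
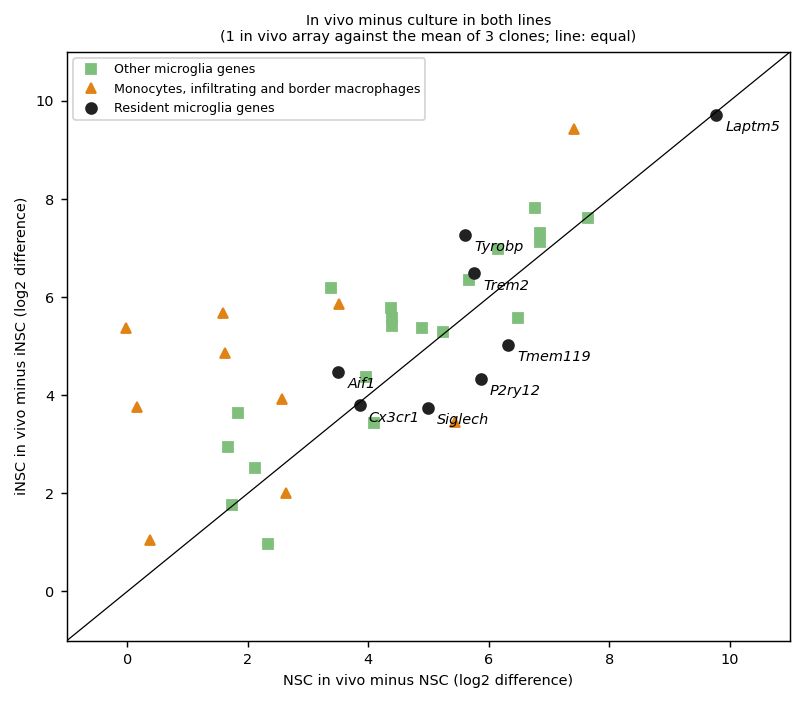
Log2 difference of iNSC in vivo minus iNSC (y axis) against that of NSC in vivo minus NSC (x axis), where each point is 1 gene and the line marks equal values. Tyrobp, Trem2 and Aif1 lie above the line, Siglech, Tmem119 and P2ry12 below it, and Cx3cr1 and Laptm5 close to it. Most monocyte and macrophage genes lie well above it. For genes undetected in both iNSC and NSC, the distance from the line largely repeats the difference between the in vivo arrays.

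The counts over the other lists leave out genes detected on neither side, and stand beside 33.6% of all genes called higher in iNSC in vivo against iNSC and 33.9% in NSC in vivo against NSC, shares that leave none out. Of the other microglia genes, 19 of 20 rose in iNSC in vivo against iNSC and 18 of 20 in NSC in vivo against NSC. On no cultured array were 10 of these 20 detected, nor 3 of 12 signalling partners, 3 of 13 transcription factors and TGF-beta genes and 4 of 10 monocyte and macrophage genes. These passed the filter through the in vivo arrays alone, so the counts are a description. Of the signalling partners, 10 of 12 rose in iNSC in vivo against iNSC and 9 of 12 in NSC in vivo against NSC, none fell, and Fcer1g was at least 56.1-fold and 22.7-fold higher in the same order. Of the transcription factors and TGF-beta genes, 7 of 13 rose and 1 fell in iNSC in vivo against iNSC, and 9 of 13 rose and none fell in NSC in vivo against NSC. Irf8 was at least 57.7-fold higher in iNSC in vivo and at least 15.8-fold higher in NSC in vivo than in culture. Of the monocyte and macrophage genes, 9 of 10 rose in iNSC in vivo against iNSC and 5 of 10 in NSC in vivo against NSC.

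Because all 8 microglia genes rose in both in vivo samples against culture, their promoters were searched on both strands for GAGGAA. It is a core of the site of the myeloid factor PU.1. RefSeq promoters of 300 bases (GRCm38.p6) were found for 6 of the 8 genes, and 4 of the 6 held the motif, as did 28.3% of all 32851 promoters. A gene counted if any of its promoters held the motif, while the share is per promoter, so the figures are not fully alike. The longer form GAGGAAGT occurred in none of the 6 and in 3.2% of all promoters. The stretches are shown for the 3 genes with a match before the start of transcription, as the gene reads 5′ to 3′, with the match in capitals, which is the motif on the opposite strand.
Trem2 (chr17:48346331-48346396, plus strand): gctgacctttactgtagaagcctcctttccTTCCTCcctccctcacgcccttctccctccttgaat
Aif1 (chr17:35176053-35176089, minus strand): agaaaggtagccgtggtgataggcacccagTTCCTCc
Laptm5 (chr4:130913248-130913313, plus strand): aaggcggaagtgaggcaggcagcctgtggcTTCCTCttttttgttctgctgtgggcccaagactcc
The match began 40 bases before the start in Trem2, 7 in Aif1 and 38 in Laptm5. In Siglech it lay after the start. A match in these windows is a description of the letters and shows no binding.

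In culture, iNSC were set against NSC to ask how induced cells differ from the brain-derived type. None of the 8 genes was called in limma, where 19.7% of all genes were, and 0 had an unadjusted p under 0.05. No NSC array detected any of the genes. Of the iNSC arrays, 1 clone detected Siglech, with 125.5 units against 114.5 units on the highest NSC array, and the difference was 0.11 ± 0.22 (SE, adjusted p = 0.808). Without that clone it was -0.16. Cx3cr1, undetected throughout, differed by 0.09 (adjusted p = 0.461, limma). The levels of both groups lay between 4.20 and 5.30 on the log2 scale.

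Laptm5 and Tmem119 were not confined to the in vivo arrays. Laptm5 gave 589, 563 and 497 units in ESC NPC, 199 units in MEF and 6589 units in ESC. In ESC NPC it was at least 16.5-fold higher than in NSC (3 against 3 arrays, adjusted p = 1.02e-09, limma), and it was lower in ESC NPC than in ESC (log2 difference -3.40 ± 0.14, SE, adjusted p = 1.58e-07, limma). The order of its levels was NSC in vivo and iNSC in vivo, which differed by 0.05, then ESC, ESC NPC and MEF, with iNSC and NSC undetected. On the ESC array 2 of the 8 genes were detected, Laptm5 and Siglech, and 3 of 20 other microglia genes, beside 41.1% of all probes. P2ry12, Cx3cr1, Trem2, Tyrobp and Aif1 were not detected there.

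Tmem119, which is known from bone-forming cells as well as microglia, gave 144, 155 and 145 units in ESC NPC, 273 units in MEF and 116 units in ESC, the last not detected. It was at least 2.38-fold higher in ESC NPC than in NSC (adjusted p = 3.43e-07, limma) and at least 2.17-fold higher in ESC NPC than in ESC (adjusted p = 1.0e-05, limma). Its levels ran from 6.13 to 6.15 in the ESC NPC clones and from 4.27 to 4.43 in the NSC clones, the latter not detected. In all, 2 of the 8 genes rose in ESC NPC against NSC, where 27.8% of all genes did, and against ESC 1 rose and 1 fell, where 22.2% and 22.5% did.

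The MEF array detected 6 of the 8 genes, P2ry12 and Cx3cr1 not among them. Set against MEF, iNSC had 3 genes lower and none higher, where 21.9% of all genes were called lower and 28% higher. Tmem119 was at least 4.58-fold lower, Laptm5 at least 2.61-fold lower and Trem2 at least 1.19-fold lower in iNSC (3 against 1 array, adjusted p = 2.22e-07, 3.05e-06 and 0.000128, limma). Tyrobp differed by -0.36 ± 0.16 (SE, adjusted p = 0.0864, limma), and with median scaling by -0.46 (adjusted p = 0.0426). Aif1 gave 118 units on MEF and 97.2 to 102 units in iNSC, and did not pass (adjusted p = 0.138). The MEF array also detected 6 of 10 monocyte and macrophage genes and 10 of 20 other microglia genes. Of all probes it detected 49.9%, the highest share of the 13 arrays, so these counts are a description. Tyrobp gave 116 units on MEF, detected, and 116 units on ESC, not detected. The part of such cells in these values was not tested.

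Genes whose pattern over the 13 arrays lay closest to the mean of the 8 microglia genes were ranked by the root mean square difference of centred log2 levels. The nearest were Arc (0.251), Nfkbid (0.302), Vsnl1 (0.355), Arhgap45 (0.387) and Atf3 (0.391), followed by Ltc4s, Rprml, Lag3, Mlxipl and Asb2 at up to 0.41. The microglia genes themselves lay at 0.484 (Trem2) to 0.744 (Tmem119) from their own mean and Laptm5 at 2.26. The 10 genes lay closer to the mean than any of the 8 did, but they were picked as the closest of all other genes tested. That order therefore largely follows from the choice and does not make them more like microglia genes. Of the 13 arrays 2 are in vivo, and all 13 share the normalization.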

How the data were processed

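The authors deposited signal intensity for each probe on each array, not normalized, with a detection p-value beside each value per the file headers. They also deposited series values on a log2 scale, judged from the values, with medians from 2.75 to 2.77. The submitters' processing notes name BeadStudio 3.2, RMA and lumi without role or order.

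R 4.3.3 and limma 3.58.1 were used. The normexp method, fitted on detection p-values, removed background, an offset of 16 was added, and arrays were quantile-normalized before taking log2. These values correlated with the deposited ones at r = 0.978 on each array. Of 25697 probes 23978 had 1 gene symbol, 0 had several and 1719 are unnamed here. A probe was used if detected (detection p under 0.01) on at least 1 of 13 arrays, and each gene was read by its probe with the highest mean. One limma fit of 7 groups gave two-sided tests with Benjamini-Hochberg adjustment over 10923 genes, with 6 residual and 3.10 prior degrees of freedom. Clone groups alone supply the spread, and groups of 1 array are assumed to vary like them. P-values measure the spread between these samples, which may be technical, and the number of arrays limits the precision. The procedure was tested on simulated data with the same spread on every array. That test therefore cannot tell whether single in vivo arrays vary like the clones.

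The genes and lists were chosen with earlier results of these data known. Genes eligible to be named were all of the microglia list, up to 5 of each other list with the largest mean in vivo minus culture difference, any gene that defines a list, and the 10 genes closest in pattern. For the neutrophil, fibroblast, pluripotency and choroid plexus lists, and most astrocyte and neuron genes, counts alone are given. Others were named after their values were seen, as said beside them. Clone numbers of iNSC and NSC may pair: deviations correlated at 0.211 to 0.503 in same-numbered clones and at -0.403 to 0.235 in others. Those of ESC NPC and NSC did not (-0.04 to -0.01). Tried as alternatives were uncorrected background, scaling by the median, the deposited values, other filters, probe means, an offset of 50, a trended robust prior, other sets of arrays, a replicate block and leaving out each clone. Leaving out both in vivo arrays was added after seeing the data.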

Additional observations from a re-analysis of the deposited data

How the results depend on the processing

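The counts of microglia genes called kept within 1.5 times of the reported count in every comparison and alternative, with 2 exceptions. With the deposited values 1 gene, Cx3cr1, passed in iNSC against NSC in place of 0, and 4 genes in place of 2 passed in ESC NPC against ESC, where Cx3cr1 and Trem2 were added. The arrays compared detected neither gene, and the cause was not tested. Between the in vivo arrays the count of 4 at 2-fold ranged from 3 to 5. Siglech in iNSC against NSC ran from -0.16 (without iNSC replicate 1) to 0.28 when single clones were left out. In iNSC against MEF, where it stood at -0.01, Siglech turned to 0.00099 without background correction, to 0.011 with an offset of 50, and ran from -0.28 to 0.16 when single iNSC clones were left out, above 0 without replicate 2 (0.09) or 3. None of these values passed the test. Siglech in ESC NPC against ESC, at -0.65 with an adjusted p of 0.122 in limma, passed at 0.00421 in a fit of those groups alone. A fit of iNSC and NSC alone tested 1 of the 8 genes, and one without both in vivo arrays, chosen after seeing the data, tested 6. The replicate block left the counts at 0 in iNSC against NSC and at 2 in ESC NPC against NSC, the comparisons it was run for, and changed the call of none of the 8 genes there. Over all genes it called 2838 in place of 2150 in iNSC against NSC and 6076 in place of 6265 in ESC NPC against NSC. Median scaling moved the median of all genes to -0.79 in iNSC in vivo against iNSC and to -0.87 in NSC in vivo against NSC, to 0.31 in iNSC against MEF and to -0.19 in ESC NPC against NSC, so every change is relative to the distribution shared by all arrays. Weak signal limits the genes near background, and levels under the detection threshold have no order. Over all genes, 2009 passed 2-fold between the in vivo arrays, 831 with uncorrected background, 1252 with median scaling, 1333 with an offset of 50, 1251 with the in vivo arrays normalized apart and 3478 with the deposited values.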

Other observations

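Other cell types on the in vivo arrays gave these values. The counts stand beside 9.18% of all genes at least 2-fold higher in iNSC in vivo and 9.21% lower. Of 6 astrocyte genes, 2 were at least 2-fold higher and 2 lower in iNSC in vivo than in NSC in vivo. Gfap, the filament of reactive astrocytes, stood at 7.10 in iNSC in vivo and was not detected in NSC in vivo, and Sparcl1 was not detected in iNSC in vivo and stood at 7.21 in NSC in vivo. Neuron genes were lower in 1 of 4 and higher in none, the 1 being Stmn2, at 7.07 in iNSC in vivo and 8.18 in NSC in vivo. Rbfox3 stood at 9.63 in iNSC in vivo and 10.52 in NSC in vivo, under the limit. Red blood cell genes were lower in 2 of 2 tested, of 4 listed, with Hba-a1 at 9.06 in iNSC in vivo and 13.06 in NSC in vivo. Neutrophil genes were lower in 1 of 4, fibroblast genes in 1 of 6, choroid plexus genes in 0 of 2 and pluripotency genes in 0 of 4, with none of these higher at 2-fold. The lower neutrophil gene, and Alas2 among red blood cell genes, were detected on NSC in vivo alone, and so passed the filter there. Neural stem cell genes detected on at least 1 of the in vivo arrays did not pass 2-fold either way. Nes, detected on neither, differed by -1.955 on the log2 scale.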
